A study of Mus musculus with 12 samples.

Results

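Microglia of aged mice that carried high phosphorylation of ERK1/2 (P-ERK1/2 High) were compared with aged microglia that carried low phosphorylation (P-ERK1/2 Low). The samples were chosen by their labels, which gave 4 High samples (samples 2, 5, 7 and 8) and 4 Low samples (samples 3, 6, 9 and 12), 8 of the 12 samples of the series. All 770 genes of the panel entered the comparison, 757 endogenous and 13 housekeeping genes, and the positive and negative control probes were set aside. The comparison asks how the transcripts of aged microglia differ with the state of this kinase pathway.

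RNA was measured on the NanoString nCounter with a mouse neuroinflammation panel, an assay that counts single RNA molecules with colour-coded probes and without amplification. The labels give the mice of both groups as untreated C57B6, more than 80 weeks old, and each sample pooled the CNS of 1 male and 1 female mouse. Cells bound to CD11b beads were plated, fixed and made permeable for an antibody to phosphorylated ERK1/2, and were then sorted as CD45Intermediate, Ly6G- and YFP+. Another group, adult microglia of mice aged 12 to 20 weeks that were not separated by P-ERK1/2, is used here only as a reference level (3 samples), and a further adult sample that the authors had excluded for poor quality was kept out. YFP marked cells in which the *Cx3cr1* promoter, active in microglia and other macrophages, had driven an inducible Cre, and the study's methods describe such Cre mice as hemizygous for *Cx3cr1* CreERT and given tamoxifen, which the labels do not mention. The labels do not tell which High and Low samples came from the same mice. The sort itself used the phosphorylated protein, so a difference in phosphorylation is given by the design. A sample pools many cells, so fewer cells that express a gene and less RNA per cell cannot be told apart.

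ERK1 and ERK2 are the last kinases of the RAF-MEK-ERK cascade, which growth factor and cytokine receptors such as CSF1R switch on. Active ERK phosphorylates cytoplasmic proteins and transcription factors, raises early response genes within a short time, and is switched off by phosphatases of the DUSP family. In microglia, the resident macrophages of the CNS, CSF1R signalling through this cascade and through PI3K and AKT is known for its part in survival, proliferation and the handling of debris.

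The High samples held more RNA signal than the Low samples. Total counts ran from 650965 to 1539936 in High and from 123798 to 157209 in Low, although the positive control probes, which are added to each sample in a fixed amount, gave geometric means of 953.9 to 1244.1 counts in High and 1148.6 to 1459.7 in Low. The authors multiplied the counts of each sample by 1 factor, so that the 13 housekeeping genes have a geometric mean of 172.7 everywhere, and this factor was 0.715 to 1.267 in High and 2.675 to 4.102 in Low. The background limit of each sample was set 2 SD over the mean count of the 8 negative controls, and a gene with a larger count passed it. On the scale of the deposited values this limit lay at 26.1 to 39.5 in High and at 69.2 to 116.9 in Low, so 589 to 673 genes exceeded it in the High samples and 410 to 484 in the Low samples. Depth therefore moved with the group, and its part in the results below was not tested.

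The Low samples were all alike in rank order, and the High samples were so only in part. Spearman's rho over the 770 genes was 0.969 to 0.977 between Low samples, 0.928 to 0.987 between High samples, lowest for the pairs with sample 7 and highest between samples 2 and 8, and 0.772 to 0.907 across the groups, as a description over genes of the same panel. Between Low samples 6 and 9 the counts differed by little more than sampling noise (chi-square per degree of freedom 1.15 over 736 genes), and the value reached 3.45 among the other Low pairs. This value grows with depth and was not compared with that of the deeper High samples. The labels name pooled mice but not separate cultures, so p-values measure only the spread between these samples. With Low samples 3, 6 and 9 averaged into 1 sample, 259 genes were called (195 higher and 64 lower) in place of the 291 given below, with 247 in common. High sample 7 lay farthest from the rest of its group, lowest by more than 1 log2 unit in 40 genes and highest by as much in 32, where no other sample passed 12 and 14.

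Limma on log2(value + 1) called 291 of the 770 genes (37.8%) with both a p under 0.01 and a change of more than 1 log2 unit, of which 217 (28.2%) were higher and 74 (9.61%) lower in High. All 291 had a Benjamini-Hochberg adjusted p under 0.05 (largest 0.0187), and in 278 of them the 4 High and the 4 Low values did not overlap, against 380 (49.4%) of all genes, 241 (31.3%) of them higher and 139 (18.1%) lower in High. Higher calls ran from 1.04 to 3.81 with a median of 1.74, and lower calls reached -3.00 with a median of -1.23. The rises were thus the larger changes, with 79 of them beyond 2 on the log2 scale against 1 fall. The median of all genes was 0.26. Without High sample 7 the calls were 224 higher and 65 lower, and without High sample 5, the deepest sample, they were 190 higher and 45 lower.

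The direction of the lower calls depended on the scaling. When the counts were scaled by the positive control probes alone, the median of all genes moved to 2.15, 659 genes were called higher and none lower, and 72 of the 74 lower calls turned, all but *Ptx3* and *Bbc3*. Scaling by 6 of the housekeeping genes gave a median of 1.02 with 361 calls higher and 4 lower. These 6 were kept because their ratios to each other varied least over the 8 samples, not for being equal between the groups. *Lars* was among them, and as deposited, without sample 7, they lay at -0.52 to -1.30. Median-of-ratios scaling gave a median of -0.01 with 175 calls higher and 123 lower, and quantile normalization a median of -0.11 with 150 and 141. Of the 291 calls, the quantile setting turned the direction of *Spp1* alone, and the other scalings by genes turned none. The share of higher calls was 74.6% as deposited, 98.9% with the 6 housekeeping genes, 58.7% by median of ratios and 51.5% by quantile normalization, and under the positive controls every call was higher. Of the 41 gene and marker lists used below, 27 had fewer higher calls and 29 more lower calls under quantile normalization than as deposited, and none moved the other way. Lower in the text below therefore means lower relative to the 13 housekeeping genes. Every fall named below other than *Ptx3* and *Bbc3* turns under the positive controls. That setting does not adjust for the amount of RNA in a sample, and it moved the genes by a similar amount. *Cd47* went from -1.92 to 0.06 and *Akt1* from 2.35 to 4.34. A fall smaller than this common shift turns with it, so a turned direction restates the shift and is not a separate check of that gene. The 13 housekeeping genes themselves ran from -1.23 for *Lars*, which was called, to 3.34 for *Supt7l*, which was called too.

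**Figure D1:**
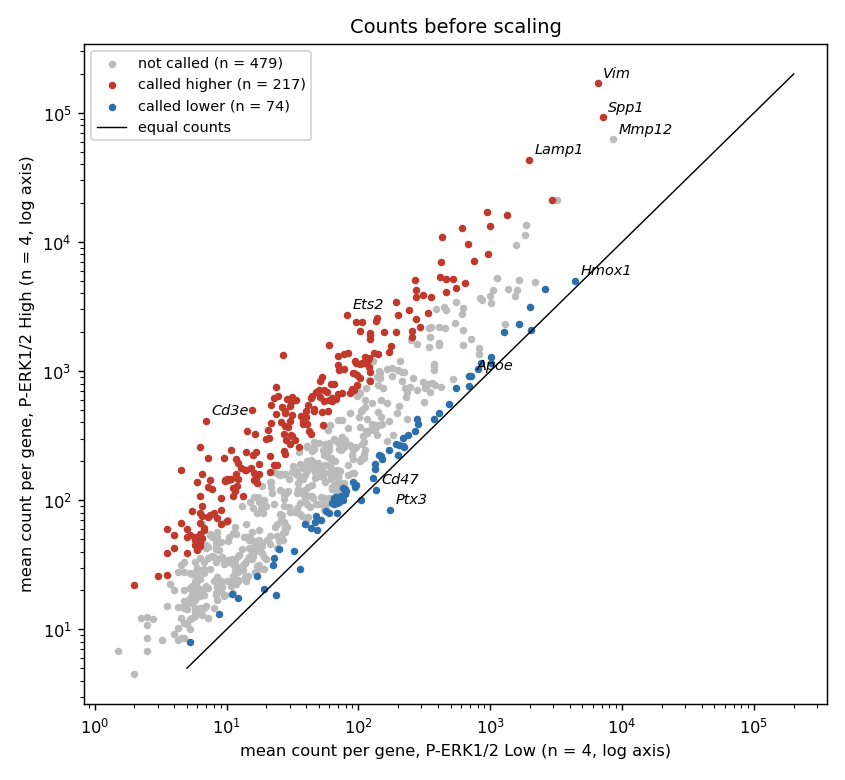
Mean count per gene before any scaling, P-ERK1/2 Low on the x axis and P-ERK1/2 High on the y axis (log axes, n = 4 each), coloured by the call on the scaled values. Nearly every gene lies above the line of equal counts, and the genes called lower lie along it.

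Before scaling, the High samples had more counts than the Low samples for nearly all genes. The difference between the groups in mean log2(count + 1) had a median of 1.86 over all genes. It was 3.36 over the genes called higher and 0.44 over the genes called lower. In 7 genes this difference was under 0. Of the 74 genes called lower, 59 had counts that overlapped between the groups and 14 had higher counts in every High sample. Only *Ptx3* had lower counts in every High sample than in every Low sample.

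Among genes above background in every High sample, the 10 largest rises were those of *Cd3e*, *Arhgap24*, *Blm*, *Supt7l*, *Kdm4d*, *Kir3dl2*, *Ets2*, *Npnt*, *Vim* and *Plxdc2* by the fitted change. No Low sample was above background for *Cd3e*, *Blm*, *Kdm4d* and *Kir3dl2*, and only 1 was for *Arhgap24* and *Supt7l*, so the place of these 6 genes in that order is not determined. Values by sample are given below in the order of High samples 2, 5, 7 and 8 and Low samples 3, 6, 9 and 12, and each comparison has n = 4 per group. *Vim*, the intermediate filament vimentin, read 208654, 155575, 129257 and 217835 in High and 21282, 20249, 20187 and 26771 in Low, a log2 fold change of 2.98 (SE 0.24) with a limma adjusted p of 6.14e-06. It was the strongest signal of every High sample, with 14.1% to 23.9% of the summed gene values against 4.42% to 5.27% in Low. Under quantile normalization, which holds the top rank of every sample at 1 value, the change of *Vim* was 0.96 and no longer called.

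*Ets2* encodes an ETS family transcription factor that is a known substrate of ERK. Its values were 2665, 3803, 1469.9 and 2647 in High and 234, 266, 286 and 320.0 in Low, with no overlap and a log2 fold change of 3.18 (SE 0.28), adjusted p = 7.4e-06 by limma. *Arhgap24*, a GTPase-activating protein for Rac, read 728, 2053, 1249.8 and 924 against 67.8, 84.1, 96.3 and 111 (log2 fold change 3.68, SE 0.32), with only Low sample 9 above background. Both genes stood above every Low and every adult value in all 4 High samples, with adult values of 147 to 296 for *Ets2* and 146 to 165 for *Arhgap24*. *Npnt*, the extracellular matrix protein nephronectin, rose by 3.02 (SE 0.23) and *Plxdc2*, a plexin-domain membrane protein, by 2.92 (SE 0.24) on the log2 scale.

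Several of the largest rises were of transcripts below background in the Low samples. *Cd3e*, a chain of the T cell receptor complex, read 112, 801, 365 and 149.5 in High and 30.5, 7.01, 37.5 and 12.3 in Low, where no sample was above background. High sample 5 was far above the other 3, and the rise is given as at least 2.69-fold against the Low background. *Blm*, a DNA helicase, read 581, 417, 573 and 557 against 27.1, 45.6, 61.5 and 73.8 and was at least 5.35-fold higher on the same terms. *Kdm4d*, a histone demethylase, was at least 1.59-fold and *Kir3dl2*, an inhibitory receptor of the killer cell family, at least 1.97-fold higher. In all, 79 of the 217 higher calls had no Low sample above background, 38 had 1 to 3 of them above it, and 100 had all 8 samples above it.

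Among genes above background in every Low sample, the 10 largest falls were those of *Ptx3*, *Cd47*, *Ccl7*, *Was*, *Lilrb4a*, *Tnf*, *Cd36*, *Atp6v0e*, *Rps10* and *Prdx1*, and of these only that of *Ptx3* kept its direction under the positive controls. The limit left out *Bbc3*, *Bcl2l11* and *Bard1*, whose changes of -1.97, -1.85 and -1.66 were as large but whose Low values were not all above background. *Ptx3*, a pentraxin that binds pathogens and debris, read 174, 52.9, 22.5 and 128 in High and 535, 557, 514 and 763 in Low (log2 fold change -3.00, SE 0.51, limma adjusted p = 0.000564). High samples 5 and 7 were the lowest, with sample 7 under its background limit, the groups did not overlap, and without sample 7 the change was -2.46. Before scaling its counts were 143, 74.0, 20.0 and 101 in High and 158, 159, 192 and 186 in Low, and adult values of 65.8 to 84.0 lay within the High range.

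*Cd47*, the surface protein that signals against phagocytosis, read 144, 133, 80.8 and 134 in High and 430.3, 494, 415 and 496 in Low, a log2 fold change of -1.92 (SE 0.24) with adjusted p = 5.37e-05 by limma. The groups did not overlap, but the change was 0.06 under the positive controls. *Lilrb4a*, an inhibitory receptor of myeloid cells, read 3407, 1208, 1598 and 3052 against 6369.9, 7832, 6683 and 6071, and its adult values of 3300.2 to 4413 lay below every Low value. Among the other large falls as deposited, *Tnf* changed by -1.57, *Was*, the actin regulator WASP, by -1.72, and *Prdx1*, a peroxiredoxin, by -1.51. The calls of *Ccl7* and *Cd36* depended on single samples. *Ccl7* was at -1.84, and at -1.12 without High 7, whose value was under its background limit. Its call was lost without High 5 or without any 1 of the 4 Low samples, where the change stayed at -1.68 to -1.93. *Cd36*, at -1.56, lost its call without High 5 (-1.59) or Low 12 (-1.50), and its change was -1.05 without High 7.

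**Figure D2:**
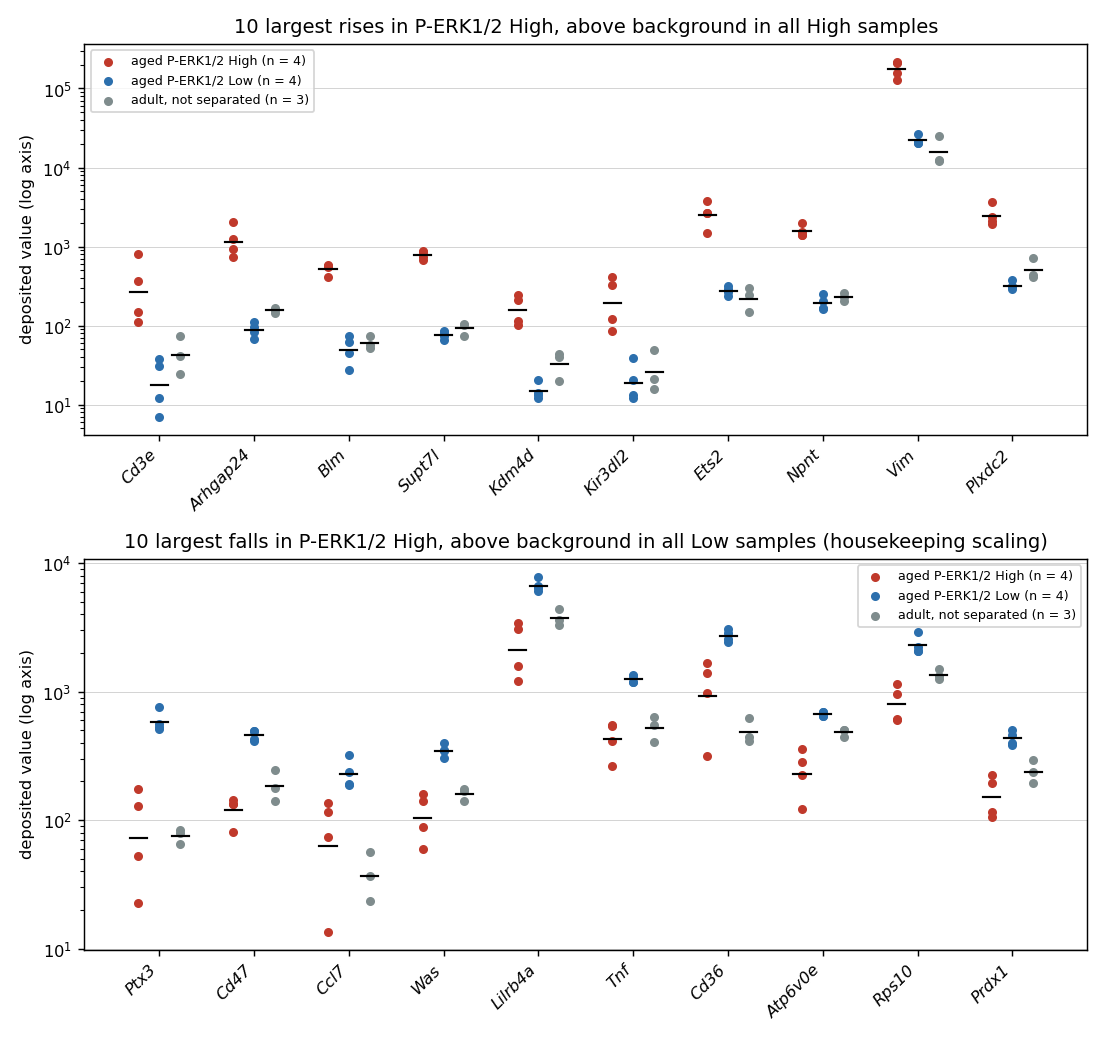
Deposited values (log axis) of the 10 largest rises and the 10 largest falls in P-ERK1/2 High among genes above background in every sample of the higher group, a point per sample and a bar at the mean of log2(value + 1), with adult samples as a reference. Lack of overlap between the groups was a condition for a gene to be drawn, and the falls drawn other than that of *Ptx3* turn in direction when counts are scaled by the positive controls.

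The promoters of *Vim* and *Ets2*, for the rises, and of *Ptx3* and *Cd47*, for the falls, are shown as the sequences that precede these transcripts, from RefSeq on GRCm38.p6 and on the plus strand, 250 bases before to 50 after each start. They lie at chr2:13574061-13574360 (*Vim*), chr16:95702157-95702456 (*Ets2*), chr3:66219637-66219936 (*Ptx3*) and chr16:49855404-49855703 (*Cd47*, the first of its 2 entries). Capitals mark matches on either strand to CCGGAA, the core bound by ETS factors, to the TATA box as TATAAA, to the box bound by NF-Y as CCAAT, and to GGGCGG, the core bound by SP1. TGANTCA, bound by AP-1, was searched for as well.
Vim: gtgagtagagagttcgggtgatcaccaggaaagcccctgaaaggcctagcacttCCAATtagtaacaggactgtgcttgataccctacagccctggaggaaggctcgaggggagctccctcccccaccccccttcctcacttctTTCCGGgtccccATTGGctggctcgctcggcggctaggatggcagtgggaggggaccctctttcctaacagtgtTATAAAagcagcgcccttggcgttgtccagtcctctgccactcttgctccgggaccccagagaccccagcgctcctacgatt
Ets2: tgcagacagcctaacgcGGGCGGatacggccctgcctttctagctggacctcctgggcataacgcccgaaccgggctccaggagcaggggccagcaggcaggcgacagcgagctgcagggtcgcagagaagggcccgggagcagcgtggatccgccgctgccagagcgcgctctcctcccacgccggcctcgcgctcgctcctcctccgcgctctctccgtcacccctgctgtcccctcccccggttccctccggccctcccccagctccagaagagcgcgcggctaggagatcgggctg
Ptx3: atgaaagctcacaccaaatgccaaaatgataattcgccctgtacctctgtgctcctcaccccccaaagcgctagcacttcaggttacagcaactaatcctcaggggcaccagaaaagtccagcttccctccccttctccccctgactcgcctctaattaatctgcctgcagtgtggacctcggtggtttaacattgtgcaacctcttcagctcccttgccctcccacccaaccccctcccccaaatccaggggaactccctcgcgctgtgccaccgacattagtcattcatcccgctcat
Cd47: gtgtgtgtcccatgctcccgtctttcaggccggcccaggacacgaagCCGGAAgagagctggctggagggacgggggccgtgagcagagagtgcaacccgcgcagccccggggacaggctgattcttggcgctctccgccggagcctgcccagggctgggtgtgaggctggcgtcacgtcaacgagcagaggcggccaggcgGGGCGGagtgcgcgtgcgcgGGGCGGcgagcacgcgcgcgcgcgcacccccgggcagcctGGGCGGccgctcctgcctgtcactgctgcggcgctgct
The *Vim* window held the ETS core, the TATA box and the NF-Y box, that of *Cd47* the ETS core and the SP1 core, that of *Ets2* the SP1 core, and that of *Ptx3* none of the motifs, and no matches overlapped. Of all 32851 promoters of this length, 14.9% held CCGGAA, 13.6% TATAAA, 37.4% CCAAT, 35.7% GGGCGG and 7.81% TGANTCA. A comparison of motif shares between called genes was void, because only 74.7% of the genes called higher and 79.7% of those called lower had a promoter sequence in the table used.

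Of 9 genes of the cascade by which the cells were sorted, 2 were called higher and 0 lower, against 28.2% and 9.61% of all genes, and the other 7 lay between -0.61 and 0.24 (list median 0.07, against 0.26 for all genes). *Dusp7*, a phosphatase that dephosphorylates ERK, read 1199, 1486, 619.9 and 1561 in High and 417, 452, 350.4 and 377 in Low, a log2 fold change of 1.53 (SE 0.29) with adjusted p = 0.00123 by limma. High sample 7 was the lowest of its group in *Dusp7* and still above every Low sample, and without it the change was 1.82. *Mapk12*, the p38 gamma kinase, read 60.9, 50.8, 40.4 and 64.6 in High and 37.3, 7.01, 16.1 and 4.10 in Low and was called, but no Low sample was above background and every High value lay under the Low background limits, so no size is given. Under quantile normalization neither was called.

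Early response genes, the usual targets of ERK, were called in both directions. Of 11, 2 were called higher (*Ets2* and *Arc*) and 1 lower (*Atf3*), against 28.2% and 9.61% of all genes, and the list median was -0.03. *Arc*, an activity-induced gene, read 116, 309, 301 and 190.1 in High and 47.4, 49.1, 45.5 and 45.1 in Low and was at least 2.17-fold higher, with no Low sample above background. *Atf3*, a stress-induced transcription factor, read 856, 322, 601 and 668 against 1521, 1742, 1570.3 and 1657 (log2 fold change -1.49, SE 0.29), a fall that became 0.50 under the positive controls.

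*Fos*, a subunit of AP-1, read 2016, 2270.1, 394 and 1747 in High and 1115, 1504, 1316 and 1551 in Low. Its log2 fold change was -0.03 (SE 0.47), adjusted p = 0.959 by limma, and without High sample 7 it was 0.56. *Jun* was at 0.04 (SE 0.25) and *Egr1* at -0.58 (SE 0.27), neither called, and under the positive controls the 3 genes were at 1.96, 2.01 and 1.41, so the direction of *Fos* and *Egr1* turned. Sample 7 was the lowest High sample in all 3 genes, *Jun* and *Egr1* were at 0.20 and -0.32 without it, and in *Fos* it lay within the adult range of 329.6 to 427.

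The PI3K and AKT genes split between paralogs. *Akt1*, the AKT kinase that is abundant in most cells, read 7183, 6650.2, 6963 and 8284 in High and 1372, 1416, 1212 and 1727 in Low, a log2 fold change of 2.35 (SE 0.21) with adjusted p = 7.4e-06 by limma. *Akt2*, its paralog known for insulin signalling, read 158, 65.0, 107 and 106 against 210.1, 242, 249 and 336, a change of -1.29 (SE 0.28). The groups did not overlap for either gene, and under the positive controls the changes were 4.34 for *Akt1* and 0.69 for *Akt2*, the latter turned. Of the 12 genes of this list, 3 were higher and 2 lower, against 28.2% and 9.61% of all genes. *Pik3cg* and *Pik3cb*, catalytic subunits of PI3K, changed by 1.71 and 1.26, and *Pik3r1*, a regulatory subunit, by -1.11 (0.86 under the positive controls). *Pik3r1* was not called without High 5.

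Small GTPases and their regulators were called in both directions. *Rala*, a small GTPase of vesicle traffic, read 2307, 2719, 2092 and 2558 in High and 335, 344, 345 and 410.2 in Low, a log2 fold change of 2.75 (SE 0.20) with adjusted p = 4.85e-06 by limma. The groups lay far apart, and the adult values of 281 to 415 were near those of Low. *Dock1*, an exchange factor for Rac that acts in engulfment, rose by 2.30 (SE 0.23). *Vav1* and *Pak1*, an exchange factor for Rac and a kinase that Rac activates, were called lower with *Was*, at -1.25 and -1.20, and turned to 0.73 and 0.77 under the positive controls. *Vav1* was not called without High 5.

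Of 11 genes of autophagosome formation, 5 were called higher (45.5%, against 28.2% of all genes) and 0 lower, and the list median was 0.98. *Atg3*, the enzyme that joins LC3 to lipid, read 1982, 3084, 2145 and 2426 in High and 501, 536, 377 and 427 in Low (log2 fold change 2.38, SE 0.23, adjusted p = 1.02e-05 by limma). *Epg5*, a tether of autophagosomes to late endosomes, rose by 2.27 with 1 Low sample above background and *Map1lc3a*, an LC3 gene, by 1.71. The other 6 genes lay between -0.45 and 0.98 and were not called. Without High sample 7, 6 were called higher.

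The receptors of selective autophagy included a pair of related genes with opposite calls. *Bnip3l*, a mitophagy receptor, read 1317, 2421, 1867 and 1946 in High and 399.8, 396, 366 and 484 in Low (log2 fold change 2.17, SE 0.24). *Bnip3*, its paralog, read 247, 99.3, 204 and 217 against 427, 417, 412 and 562 (log2 fold change -1.31, SE 0.29), without overlap and with adjusted p-values of 2.11e-05 and 0.00296 by limma, and the fall became 0.67 under the positive controls. *Optn* and *Calcoco2*, receptors for ubiquitin-marked cargo, were called higher, *Optn* at 1.39. *Calcoco2* read 58.4, 57.2, 148 and 63.4 in High and 16.9, 28.1, 16.1 and 45.1 in Low, where no sample was above background, and no size is given because its High mean did not exceed the mean of the Low background limits.

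Of 22 lysosome and endosome genes, 7 were called higher and 3 lower, against 28.2% and 9.61% of all genes, with a list median of 0.01. *Lamp1*, a lysosomal membrane protein, read 30641, 62085, 31092 and 42101 in High and 5933, 7148, 6166 and 7167 in Low, a log2 fold change of 2.59 (SE 0.26) with adjusted p = 1.27e-05 by limma. *Vamp7*, a fusion protein of late endosomes, rose by 2.39, *Hps4*, a factor in the making of lysosome-related organelles, by at least 3.38-fold and *Ctse*, the protease cathepsin E, by at least 1.10-fold. The lower calls as deposited were *Atp6v0e*, a subunit of the proton pump at -1.53, *Grn*, progranulin, at -1.18, and *Lgmn*, the protease legumain, just past the limit of 1 log2 unit. These turned to 0.45, 0.81 and 0.99 under the positive controls. *Grn* was not called without High 5, and *Lgmn* not without High 5, Low 6 or Low 12.

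The labelled cell type was checked with 14 homeostatic microglia genes. All 4 High samples were above background for 12 of them and all 4 Low samples for 6, with *Csf1r*, the receptor on which microglia depend, among them. *Csf1r* read 1195 to 1838 in High and 2602 to 2937 in Low. Its change of -0.84 was not called and was 1.15 under the positive controls. *Tmem119*, a marker of microglia, read 175, 282, 509.8 and 267 in High and 54.2, 77.1, 69.5 and 82.0 in Low, with 1 Low sample above background, and *P2ry12*, a purine receptor of resting microglia, read 144, 151, 282 and 128 against 50.8, 31.6, 61.5 and 36.9, with none. *Sall1*, the transcription factor that keeps microglial identity, was above background in 1 Low sample and *Gpr34*, a lysophospholipid receptor, in none. *Tmem119*, *P2ry12*, *Sall1* and *Gpr34* were thus at or near background in the Low samples, which have the lower depth. All 4 were called higher in High, *Tmem119* and *Sall1* by 2.02 and 1.70 on the log2 scale, *P2ry12* at least 1.70-fold and *Gpr34* at least 1.26-fold. *Gpr34* was not called without High 5, High 7 (0.97), Low 9 or Low 12. The list had 4 higher and 0 lower of 14 (28.6%), near the 28.2% of all genes, and a median of -0.03. The other 10 genes lay between -0.84 and 0.76 and were not called.

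Of 14 genes of the disease-associated microglia state, 5 were higher and 4 lower, against 28.2% and 9.61% of all genes. *Spp1*, osteopontin, read 75182, 93889.9, 113517 and 97535 in High and 23365, 23044, 20623 and 30143 in Low, a log2 fold change of 1.97 (SE 0.22), which was -0.10 under quantile normalization. *Axl*, a receptor for apoptotic cells, read 4757, 6356, 3482 and 5613 against 820.0, 876, 799.9 and 1157, and *Csf1*, a ligand of CSF1R, 6656, 19859, 3968 and 9126 against 1288, 1437, 1295 and 1780.4, with changes of 2.45 (SE 0.25) and 2.53 (SE 0.40). *Csf1* was highest in sample 5 and lowest in sample 7 among the High samples, without touching the Low samples, and its change without sample 7 was 2.89. *Apoe*, a lipid carrier, read 1063, 628, 1422 and 839 in High and 2213, 2254, 2223 and 2978 in Low (log2 fold change -1.34, SE 0.27, adjusted p = 0.00156 by limma). *Tyrobp*, the adaptor of TREM2, was at -1.05 and was called lower with *Apoe*, *Cd36* and *Lilrb4a*, and all of them turned under the positive controls. *Tyrobp* was not called without High 7 (-0.89) or Low 12.

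Of 9 Fc receptor and signalling genes, 0 were called higher and 4 lower as deposited, against 28.2% and 9.61% of all genes, with a list median of -0.80. *Fcgr2b*, the inhibitory Fc receptor, read 605, 195, 244 and 494 in High and 932, 827, 811 and 1083 in Low (log2 fold change -1.39, SE 0.34), and *Fcgr1*, the high-affinity receptor, 130.2, 131, 102 and 134 against 247, 291, 259 and 258 (log2 fold change -1.09, SE 0.20). Both were without overlap between groups, and they turned to 0.60 and 0.89 under the positive controls. There 5 of the 9 were called higher, against 659 of all 770 genes. Without High sample 7 only *Fcgr2b* of the 4 was called, and *Lyn*, a Src family kinase at -1.08, was not called without High 5, High 7 (-1.04), Low 6 or Low 12 either.

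Antigen presentation and chemokine genes showed large spreads within High. *Cd74*, the invariant chain of MHC class II, read 790.0, 724, 2356 and 855 in High and 244, 294, 251 and 115 in Low, a log2 fold change of 2.27 (SE 0.40) with adjusted p = 0.000711 by limma. *Cd83* and *Cd86*, which act in costimulation, rose by 1.99 and 1.64, and 3 of 10 genes of this list were higher and 1 lower, against 28.2% and 9.61% of all genes. The lower call was that of the chaperone *Calr* at -1.03 (0.96 under the positive controls, not called without High 5 or Low 6). *Ccl2*, a chemokine for monocytes, read 4884, 8119, 1249 and 6275 against 1274, 1367, 1329.6 and 1653. Sample 7 lay below the Low range, the other 3 High samples were above it, and the change was 1.59 (SE 0.47) and 2.17 without sample 7. The call was lost without any 1 of High 2, 5 and 8 and of Low 3, 6, 9 and 12, where the change was 1.27 to 1.67. *Ccl4*, another chemokine, was lower at -1.23 (0.75 under the positive controls) with values of 152 to 294 against 476 to 526. *Cxcl9* and *Xcl1* were called higher, *Xcl1* with 41.4 to 107 in High against 16.9 to 26.8 in Low, but no Low sample was above background for either and the High means did not exceed the mean of the Low background limits, so no size is given.

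In the interleukin-1 system 4 of 17 genes were higher and 1 lower, against 28.2% and 9.61% of all genes. *Il1a* read 229, 325, 1027 and 388 in High and 74.5, 87.6, 80.3 and 73.8 in Low, with sample 7 the highest and a log2 fold change of 2.38 (SE 0.38), or 1.95 without that sample, and 1 Low sample was above background. The inflammasome sensor *Nlrp3* rose by 1.37 (SE 0.26), the kinase *Irak1* by 1.88 (SE 0.23) and *Casp1* by 1.16 (SE 0.31), while *Casp4* was at -1.34 (0.61 under the positive controls). *Casp1* was not called without High 5 (0.92), and *Casp4* not without High 5 (-0.91), Low 3 (-1.30) or Low 6 (-1.27). Of 8 Toll-like receptor genes, 3 were higher, against 28.2% of all genes, which besides *Irak1* were *Tlr7*, the receptor for single-stranded RNA, at 1.60 and the adaptor *Traf6*, which was at least 3.02-fold higher.

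The interferon list of 21 genes gave 2 higher calls and 1 lower call, against 28.2% and 9.61% of all genes. *Ifih1* and *Ddx58*, cytoplasmic sensors of viral RNA, were higher in every High sample than in every Low sample, with rises of 2.91 (SE 0.22) and 1.54 (SE 0.21), and 1 Low sample was above background for *Ifih1*. Without High sample 7, 4 genes of the list were higher and 3 lower. Among 20 NF-kB and TNF genes 4 were higher and 3 lower, beside the same shares: *Rela* and *Birc3* at 1.41 and 1.65 were among the first, and *Tnf*, *Nfkb2* and *Ikbkg* at -1.57, -1.07 and -1.11 were the latter, which all turned under the positive controls. *Nfkb2* and *Ikbkg* were not called without High 5, nor *Nfkb2* without Low 12.

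Of 10 complement genes 1 was higher and 1 lower, against 28.2% and 9.61% of all genes, with a list median of 0.30 against 0.26. *Itgam*, the integrin that carries the CD11b epitope used for enrichment, read 1546 to 2594 in High and 789 to 898 in Low, a rise of 1.21 (SE 0.22). *C5ar1*, the receptor for C5a, was at -1.41 (0.58 under the positive controls). Its call was lost without High 5, where the change stayed at -1.35, and the change was -1.03 without High 7. In the list of 15 phagocytic and scavenger receptors, 4 were higher and 2 lower, beside the same shares, with a median of 0.16.

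Of 9 pro-apoptotic BCL2 family genes, 0 were called higher and 3 lower as deposited, *Bbc3*, *Bcl2l11* and *Bok*, against 28.2% and 9.61% of all genes. *Bcl2l11*, the BH3-only protein BIM, read 46.3, 19.3, 34.8 and 27.9 in High and 159, 109, 134 and 69.7 in Low, where 2 High and 3 Low samples were above background. None of the 8 samples passed the background limit for *Bbc3*, nor for the called genes *Ddb2*, *Gdpd2* and *Il3*, so these 4 calls compare values under the detection limit. Of 4 anti-apoptotic members, chosen after their values were seen, *Bcl2l1*, *Bcl2l2* and *Bcl2a1a* were called lower, at -1.19, -1.16 and -1.26, while *Bcl2* was at 0.24 and not called. All falls named here other than that of *Bbc3* turned under the positive controls. *Bok* was not called without High 5, High 7 (-0.93), High 8 or Low 12, and *Bcl2l2* not without High 5. Of 8 caspases, 2 were called higher and 3 lower, beside the same shares. *Casp9* and *Casp8*, which start apoptosis, were lower with *Casp4*, at -1.37 and -1.23 (0.60 and 0.75 under the positive controls). Without High 5, *Casp8* was not called.

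DNA repair genes gave 11 higher and 3 lower calls of 42 (33.3% called, against 37.8% of all genes). *Brca1*, which acts in recombination repair, read 306, 449.6, 240.3 and 359.8 in High and 47.4, 31.6, 45.5 and 69.7 in Low and was at least 3.36-fold higher, since no Low sample was above background. *Mpg*, a DNA glycosylase, was at least 2.08-fold higher on the same terms, and *Chek2*, a checkpoint kinase, rose by 2.07, with 1 Low sample above background. *Topbp1*, a checkpoint activator, was at -1.23 (0.74 under the positive controls), and not called without High 7 (-0.99). In 22 of these 42 genes no Low sample was above background. Of 13 p53 targets 2 were higher and 2 lower, against 28.2% and 9.61% of all genes. The 2 lower were *Bbc3* and *Ddb2*, both below background. Of 20 cell cycle genes 8 were higher and 0 lower, against 28.2% and 9.61% of all genes, with *Cdc25a*, a phosphatase that activates cyclin-dependent kinases, at 2.42, *Cks1b* at 1.75 and *Stmn1* at 1.57. Without High sample 5 the numbers were 5 and 0, and under quantile normalization 3 and 3. The mean of the list, with each gene centred on the 8 samples on the log2 scale, was -0.57 in High sample 7, below all Low samples (-0.42 to -0.05), and 0.37 to 0.85 in the other High samples. *Stmn1* read 933 in sample 7 and 2344 to 4823 in the other High samples. It was at 2.02 without sample 7 and not called without High 5 (1.23).

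Of 14 histone demethylases, 7 were called higher and 0 lower, against 28.2% and 9.61% of all genes, with a list median of 1.34. *Kdm5b* read 391, 575, 667 and 495 in High and 67.8, 123, 69.5 and 103 in Low, a log2 fold change of 2.56 (SE 0.27) with adjusted p = 1.57e-05 by limma. *Kdm2b* rose by 2.39 and *Kdm6a*, which acts on a Polycomb mark, by 1.98, the latter with 1 Low sample above background. No High sample of these 3 genes touched the Low range, but only 5 of the 14 genes were above background in all Low samples. The count was 7 without High sample 7 and 7 without High sample 5.

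Polycomb genes were called in opposite directions. *Suz12*, a core subunit of PRC2, read 1208, 1503, 1359.9 and 1514 in High and 230.4, 266, 297 and 320.0 in Low (log2 fold change 2.33, SE 0.21), and *Eed*, another core subunit of the same complex, 173, 64.3, 125 and 127 against 281, 298, 241 and 234 (log2 fold change -1.18, SE 0.29, 0.79 under the positive controls). Neither overlapped between groups, and *Eed* was not called without High 5. *Bmi1*, a subunit of PRC1, was called higher with values of 315, 328, 454 and 339.6 in High and 54.2, 31.6, 96.3 and 86.2 in Low, where only sample 9 was above background. Of 19 methyltransferase and Polycomb genes 7 were higher and 2 lower, and among 23 genes of chromatin remodelling and acetylation the numbers were again 7 and 2, against 28.2% and 9.61% of all genes. *Brd2*, a reader of acetylated histones, read 2757 to 4248 against 583 to 715, a rise of 2.43, and *Sin3a* and *Arid1a* rose by 1.96 and 1.75. *Smarca4* and *Smarca5*, ATPases of nucleosome remodelling, were at -1.02 and -1.19, turned to 0.96 and 0.79 under the positive controls and were not called without High 5, nor *Smarca4* without Low 12.

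**Figure D3:**
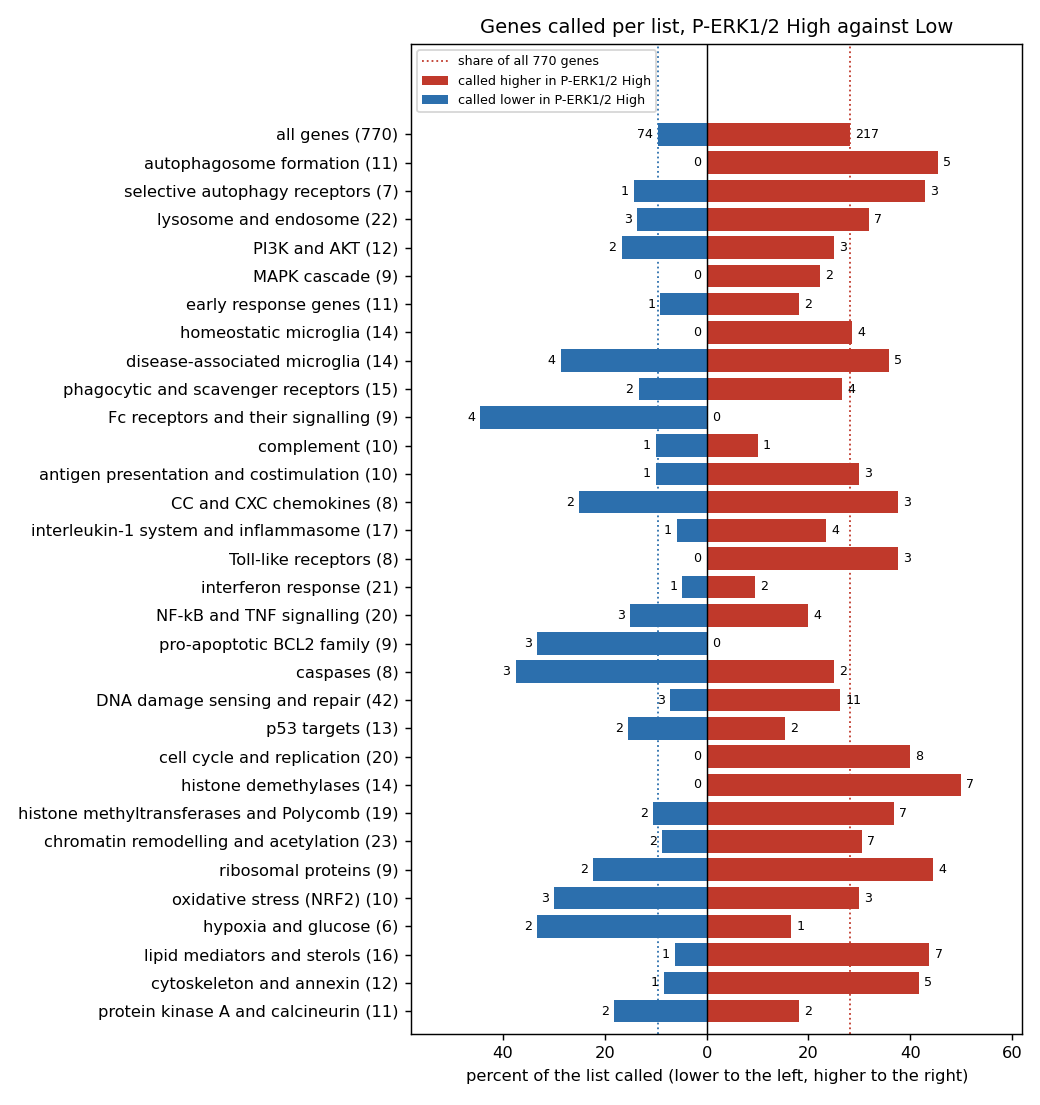
Share of the gene lists described called higher (right) or lower (left) in P-ERK1/2 High as deposited, with the number of genes at the bars, the list size in brackets and the share of all 770 genes as dotted lines. Of the histone demethylases 7 of 14 are higher, 4 of 9 Fc receptor genes are lower, and lower calls other than *Ptx3* and *Bbc3* turn under the positive controls.

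Ribosomal protein genes, whose products sit in the same particle, gave 4 higher and 2 lower calls of 9, against 28.2% and 9.61% of all genes. *Rpl29* read 15084, 11326, 13462 and 16093 in High and 3114, 3390.1, 3309 and 3544 in Low, and *Rps10* read 1155, 604, 609.8 and 953 against 2067, 2226, 2076 and 2941. Their log2 fold changes were 2.06 (SE 0.21) and -1.53 (SE 0.27), with *Rpl28* at 1.82 and *Rpl9* at -1.49, and the 2 falls became 0.46 and 0.50 under the positive controls. Ribosomal proteins have many near-identical pseudogenes, so a probe may also count their transcripts.

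Of 10 genes of the NRF2 response to oxidative stress, 3 were called higher and 3 lower as deposited, against 28.2% and 9.61% of all genes. The numbers were 5 and 0 with the 6 housekeeping genes and 1 and 4 under quantile normalization. *Srxn1*, sulfiredoxin, read 3798, 3905, 3388 and 4276 in High and 823, 957, 931 and 976 in Low, a log2 fold change of 2.06 (SE 0.20). *Hmox1*, haem oxygenase 1, read 7819.8, 2482, 6083 and 5989 against 14146, 16165, 14320.3 and 14206, a change of -1.51 (SE 0.32). *Txnrd1*, thioredoxin reductase, was lower with *Hmox1* and *Prdx1*, at -1.36, and these 3 turned to 0.63, 0.48 and 0.47 under the positive controls. Of 6 hypoxia and glucose genes, 1 was higher and 2 lower, beside the same shares. *Vegfa*, the vascular growth factor, rose by 1.74 (SE 0.26), and the glucose transporter *Slc2a1* was lower with *Bnip3*, at -1.24 (0.73 under the positive controls, not called without High 5).

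Of 16 genes of lipid mediators and sterols, 7 were higher and 1 lower (list median 0.67), against 28.2% and 9.61% of all genes, and 8 of the 16 had no Low sample above background. *Ch25h*, the enzyme that makes 25-hydroxycholesterol, read 157, 235, 243 and 213 in High and 20.3, 28.1, 40.1 and 36.9 in Low and was at least 2.13-fold higher, with no Low sample above background. *Gpr183*, a receptor for oxysterols made from that product, was at -1.01 (0.96 under the positive controls) and lost its call without High 5, High 7 (-0.91) or Low 6. *Ptgs2*, the cyclooxygenase of prostaglandin synthesis, read 4693, 5286, 1938 and 4977 against 979, 775, 757 and 1227, a rise of 2.10 (SE 0.33). *Pld1*, a phospholipase, was at least 1.26-fold higher.

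Cytoskeleton and annexin genes gave 5 higher and 1 lower call of 12, against 28.2% and 9.61% of all genes. *Msn*, moesin, which links actin to the membrane, read 12953, 22109, 15040.5 and 17065 in High and 3087, 3145, 2905 and 3688 in Low (log2 fold change 2.37, SE 0.23). *Emp1*, *S100a10* and *Anxa1* rose by 1.74, 1.47 and 1.77, and the actin bundler *Fscn1* was at -1.31 (0.68 under the positive controls). *Anxa1*, a protein of inflammation resolution, read 2496 in sample 7, within the Low range of 1923 to 3023, and 9458 to 14366 in the other High samples. It was at 2.31 without sample 7 and not called without High 5 (1.47). In the protein kinase A and calcineurin list 2 of 11 were higher and 2 lower, beside the same shares. *Ppp3r1*, the regulatory subunit of calcineurin, and the transcription factor *Creb1* rose by 2.39 (SE 0.29) and 2.01 (SE 0.39), both highest in sample 5. *Prkaca* and *Prkar1a*, a catalytic and a regulatory subunit of protein kinase A, were at -1.50 and -1.46 and turned to 0.49 and 0.53 under the positive controls. *Bdnf*, a growth factor chosen after its values were seen, read 416, 985, 465 and 549 in High and 84.7, 56.1, 74.9 and 119 in Low, a log2 fold change of 2.80 (SE 0.32).

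**Figure D4:**
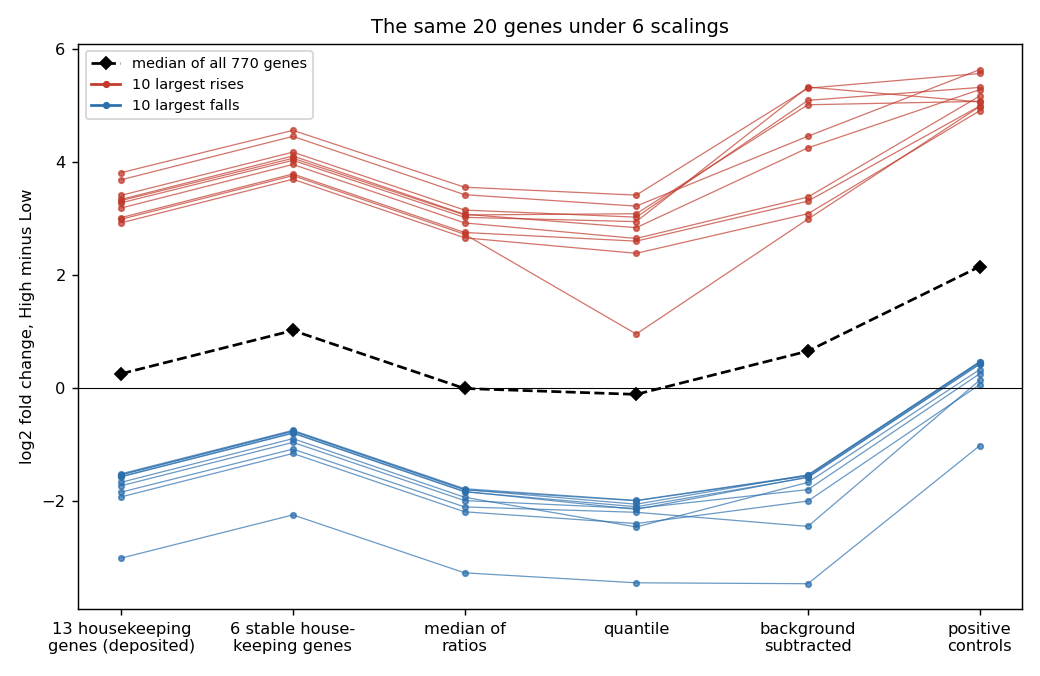
Log2 fold change (High minus Low) of the same 20 genes, the 10 largest rises and the 10 largest falls among genes above background in every sample of the higher group, under 6 scalings, with the median of all 770 genes as a dashed line. The median moves from -0.11 to 2.15, the rises stay above 0, and the falls drawn other than that of *Ptx3* lie above 0 under the positive controls.

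Most markers of other cell types were above background in no Low sample and partly above it in High. Exceptions in Low were *Blnk* of the B cell list, at 747 to 1013, and *Gja1* of the astrocyte list, at 325 to 372, among others. The counts of calls stand against 28.2% higher and 9.61% lower of all genes. Of 20 T and NK cell genes none was above background in any Low sample, and 4 were called higher, while their summed value was 544.1 to 1434.5 in High and 339.8 to 494.3 in Low. Above background in all 4 High samples were 2 of the 20, *Cd3e* and *Eomes*, a transcription factor. Of 16 oligodendrocyte genes 3 were higher and 1 lower, with sums of 660.1 to 1222.9 against 559.1 to 683.7, and *Erbb3* read 65.7, 280.2, 162 and 55.8 against 13.6, 24.5, 18.7 and 32.8. Of 18 neuron genes 5 were higher and 2 lower, with sums of 911.7 to 1104.3 against 572.6 to 697.4, and *Rbfox3* was at least 1.38-fold higher.

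Of 8 astrocyte genes 5 were higher and 0 lower, against 28.2% and 9.61% of all genes (list median 1.24), with sums of 2111.1 to 2974.8 in High and 695.5 to 959.9 in Low. *Egfr*, which macrophages can also express, read 523, 783, 650.2 and 502 against 115, 84.1, 104 and 115 and *Kcnj10*, a potassium channel, was at least 1.71-fold higher. Of 11 endothelial genes 4 were higher and 0 lower, with sums of 981.1 to 1737.2 against 557.4 to 763.0, and *Flt1* and *Cldn5* were at least 2.36-fold and 1.35-fold higher. Lists of neutrophils (7 genes), B cells (8) and mast cells (5) gave 1, 1 and 2 higher calls, with *Lrg1* for the first at no less than 1.04-fold, and sums of 297.7 to 773.7 against 389.7 to 513.6 for neutrophils, 906.9 to 1714.7 against 918.9 to 1188.5 for B cells and 108.3 to 247.0 against 82.9 to 94.4 for mast cells. Of 7 genes of monocytes and border macrophages 3 were higher, with sums of 587.9 to 994.9 against 270.2 to 333.1 and *Fgl2* at least 2.98-fold higher. No marker had a count of 0 in any of the 8 samples, and the part of other cells in the results above was not tested.

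High sample 7 lay apart in named genes on both sides. *Mmp12*, a macrophage elastase and the strongest signal of every Low sample, read 54885, 94274, 8502 and 83267 in High and 27424, 28632, 25861 and 33597 in Low. With sample 7 its change was 0.61 (SE 0.61) and not called, and without it 1.39 and called. *Cd72*, an inhibitory receptor, read 265 in sample 7 and 1444 to 1636 in the other High samples, and its change of 1.17 became 1.80 and called. *Crip1*, a small LIM protein, read 214 against 842 to 1087, and its change of -0.75 became -0.21.

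In the other direction, *Gadd45a*, a gene of growth arrest, read 387 in sample 7 and 55.8 to 119 in the other High samples, and *Lcn2*, lipocalin 2, 326 against 46.5 to 112. Their changes of -0.87 and -0.85 became -1.40 and -1.37 without sample 7, and both were then called. In all 40 genes in which sample 7 was lowest by more than 1 log2 unit, the adult mean lay below that of the other High samples, and sample 7 was closer to the adult mean than to the other High samples in 38 of them and closer to the adult than to the Low mean in 28. In the 32 genes in which it was highest, the numbers were 16 on the same side, 16 and 26. These genes were chosen by the distance of sample 7 from the other High samples, which favours closeness to any other group. The 5 genes *Mmp12*, *Cd72*, *Crip1*, *Gadd45a* and *Lcn2* were chosen after their values were seen.

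**Figure D5:**
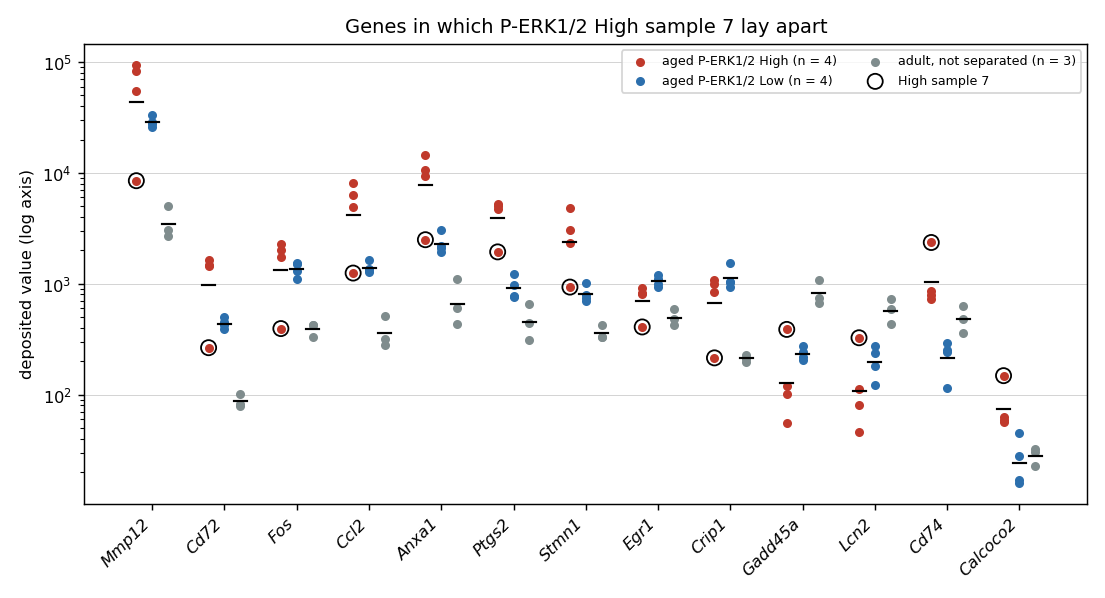
Deposited values (log axis) by sample of 13 genes in which High sample 7, circled, lay apart from the other High samples, with bars at the mean of log2(value + 1). Sample 7 reads 8502 for *Mmp12* where the other High samples read 54885 to 94274, and without it the changes were 2.44 for *Ptgs2* and 1.88 for *Cd74*. It reads above the others for *Gadd45a*, *Lcn2*, *Cd74* and *Calcoco2*.

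Set beside adult microglia that were not separated by P-ERK1/2, the mean of the 3 adult samples was closer to Low than to High for 247 of the 291 called genes. Among the exceptions described above, *Ptx3*, *Cd36* and *Ccl7* had adult values of 65.8 to 84.0, 415 to 626 and 23.3 to 56.7, against 514 to 763, 2416 to 3085 and 189 to 320.0 in Low. For *Vim*, *Akt1* and *Rala* the adult values of 12188 to 24935, 1038 to 1385 and 281 to 415 lay beside the Low values. The 291 genes were chosen for a difference between High and Low, and the count of 247 has no counterpart over all genes. Adult total counts of 137980 to 326575 were also below every High total (650965 to 1539936), as were those of Low (123798 to 157209). The part of depth in the closeness of adult to Low was not tested.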

How the data were processed

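RNA molecules of the sorted cells were counted with the nCounter. The deposited table holds 1 signal value per gene and sample, a whole count that the authors multiplied by 1 factor per sample in nSolver (version not given in the sources used here) to equalize the geometric mean of 13 housekeeping genes, with no background subtraction. Counts were recovered by dividing by that factor. Limma 3.58.1 (R 4.3.3) was fitted to log2(value + 1) of 4 High and 4 Low samples, with no covariate or filter, with calls at a p under 0.01 and more than 1 log2 unit, and Benjamini-Hochberg adjustment over 770 genes. A fold change on this scale understates that of low genes. Against Low samples that were all below background, a rise is given as at least the ratio of the High mean to the mean Low background (means of log2 values). Named genes were the 10 largest rises and falls whose groups did not overlap and whose counts were above background in every sample of the higher group, and up to 4 called members per list and direction. The 32 gene lists, 9 marker lists and members were chosen with earlier results of these data known. The fit was also run on simulated counts, and the outcome is not given here. Other scalings, filters, pseudocounts, thresholds and left-out samples were tried as alternatives. Some genes and 1 gene list are not reported here.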

Additional observations from a re-analysis of the deposited data

Results flagged for a closer look

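Among 306 groups of 4 values of the named genes, 23 held a sample whose gap to its nearest neighbour was past Dixon's critical value as a share of the whole range, given below in brackets. Chance alone flags about 5 in 100 such groups. Sample High 7 lay apart in 10 genes, lowest of its group in *Cd47* (0.865), *Fos* (0.85), *Egr1* (0.841), *Fcgr1* (0.888), *Cks1b* (0.86), *Ptgs2* (0.881), *Cd72* (0.931) and *Crip1* (0.843) and highest in *Calcoco2* (0.893) and *Cd74* (0.859). *Cd72* and *Crip1* had been named because sample 7 lay apart in them, so their gaps restate that choice and are not to be read against the chance rate. Without High 7 the log2 fold changes were -1.73 for *Cd47*, -0.99 for *Fcgr1* and 1.94 for *Cks1b*. Sample Low 12 lay apart in 8 genes, lowest of its group in *Cd83* (0.839) and highest in *Rala* (0.859), *Bnip3* (0.885), *Apoe* (0.937), *Topbp1* (0.881), *Rpl28* (0.9), *Rpl9* (0.922) and *Flt1* (0.909). Other samples that lay apart were High 5 in *Blm* (0.877), Low 9 in *Pik3cb* (0.86), Low 3 in *Ikbkg* (0.855), High 2 in *Mpg* (0.871) and Low 6 in *Hmox1* (0.908).

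In the adult sample that the authors had excluded for poor quality, 196 of the 217 genes called higher in High lay above every Low sample and every other adult sample (90.3%), against 377 of all 770 genes (49.0%). Its total count was 1464449, and its positive control probes gave a geometric mean of 286.4 counts.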

How the results depend on the processing

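No paired analysis was possible because the labels do not tell which High and Low samples came from the same mice. Against 291 calls (217 higher and 74 lower), scaling by the positive controls alone gave 659 calls, 659 higher and 0 lower. The 6 housekeeping genes gave 361 higher and 4 lower calls. Median-of-ratios scaling gave 123 lower calls and quantile normalization 141, and an adjusted p under 0.05 with no fold limit gave 140. Leaving out 1 sample at a time gave 235 to 310 calls, 190 to 230 higher and 45 to 81 lower, with the fewest without High sample 5. The cause of these shifts was not tested. Averaging Low samples 3, 6 and 9, chosen after seeing the data, gave 259 calls.

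Over 153 named genes and all alternatives, 2620 values kept their direction and their side of the threshold, 184 lost the call, 13 gained one and 74 turned. The log2 fold changes that turned under the positive controls were *Cd47* 0.060, *Ccl7* 0.14, *Was* 0.25, *Lilrb4a* 0.33, *Tnf* 0.42, *Cd36* 0.43, *Atp6v0e* 0.45, *Rps10* 0.46, *Prdx1* 0.47, *Fscn1* 0.68, *Vav1* 0.73, *Pak1* 0.77, *Akt2* 0.69, *Pik3r1* 0.86, *Atf3* 0.50, *Fos* 1.96, *Egr1* 1.41, *Bnip3* 0.67, *Grn* 0.81, *Lgmn* 0.99, *Apoe* 0.65, *Tyrobp* 0.94, *Fcgr2b* 0.60, *Fcgr1* 0.89, *Lyn* 0.90, *C5ar1* 0.58, *Calr* 0.96, *Ccl4* 0.75, *Casp4* 0.61, *Nfkb2* 0.90, *Ikbkg* 0.86, *Bcl2l11* 0.096, *Bok* 0.87, *Casp9* 0.60, *Casp8* 0.75, *Topbp1* 0.74, *Eed* 0.79, *Smarca5* 0.79, *Smarca4* 0.96, *Rpl9* 0.50, *Hmox1* 0.48, *Txnrd1* 0.63, *Slc2a1* 0.73, *Gpr183* 0.96, *Prkar1a* 0.53, *Prkaca* 0.49, *Crip1* 1.23, *Gadd45a* 1.10, *Lcn2* 1.12, *Bcl2l1* 0.79, *Bcl2l2* 0.81, *Bcl2a1a* 0.73, *Ddb2* 0.77, *Gdpd2* 0.76, *Il3* 0.73, *Lars* 0.75, *Csf1r* 1.15 and *Bard1* 0.27. *Fos* was at 0.74, *Egr1* at 0.19 and *Crip1* at 0.017 with the 6 housekeeping genes. *Fos* was at 0.56 without High 7, 0.03 without Low 12 and 0.02 without Low 6, against -0.03, and leaving out 1 sample gave -0.29 to 0.56. *Jun*, at 0.04, was at -0.23 by median of ratios, -0.41 by quantile normalization, -0.14 without High 5, -0.01 without High 8, -0.02 without Low 3 (-0.14 to 0.20 over left-out samples) and -0.045 with Low samples averaged. *Bcl2* turned to -0.024 by median of ratios and -0.11 by quantile normalization. Quantile normalization turned *Spp1* to -0.10 and *Mmp12* to -1.35. In the Low samples, 278 genes were above background in no sample, and the part of depth in this was not tested. The 3 planned tests on whole counts were not run.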
